A study of Danio rerio with 28 samples.

Results

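The zebrafish genes named ZNF and a number were followed from the egg to the gastrula, in wild-type embryos and in embryos given a transcription inhibitor or a morpholino against 1 of 2 mRNA-binding proteins. Members were all Ensembl gene identifiers in the count files whose symbol, in lower case, is znf and a number with any suffix. This gave 167 members of 33737 identifiers, 21939 of which had a symbol, and the members carry 161 distinct symbols because 6 symbols stand on 2 identifiers each. All embryos were whole zebrafish embryos of the AB strain. Poly(A)-selected RNA came from ybx1 MO embryos, which received a ybx1 morpholino, at 3, 4 and 6 hours post fertilization (hpf), from pabpc1a MO embryos, which received a pabpc1a morpholino, at 4 and 6 hpf, and from wild-type embryos (WT) at 0, 2, 3, 4 and 6 hpf. Embryos injected with 0.2 ng of alpha-amanitin at the one-cell stage were sampled at 2, 4 and 6 hpf and WT embryos at 4 hpf as rRNA-depleted RNA. Each of the 14 groups had 2 libraries, 28 in all, and the amanitin samples were pools of embryos. The labels name no embryos injected with a control morpholino or with vehicle, so the knockdown and amanitin groups are set against WT.

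A C2H2 zinc finger is a short stretch of protein folded around a zinc ion by cysteines and histidines, and arrays of such fingers bind DNA, RNA or other proteins. In vertebrates these are among the most numerous transcription factor genes, and in zebrafish many of the higher-numbered members lie in families of similar copies whose roles are largely unknown. The egg carries maternal mRNA but its genome is nearly silent. Transcription starts in earnest in the blastula, while maternal mRNAs are cleared. Ybx1 is a cold shock domain protein that packages maternal mRNA, Pabpc1a is a cytoplasmic poly(A)-binding protein, and alpha-amanitin blocks RNA polymerase II.

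Counted reads per library ran from 48204100 to 100000375 after poly(A) selection and from 39882963 to 66381933 after rRNA depletion. Levels are in CPM, that is, counts per 1000000 counted reads, scaled for library composition and not corrected for gene length, so they are compared within a gene or as a sum over a list. Differences were tested with edgeR's quasi-likelihood test over all genes, 22377 in the poly(A) fit and 21525 in the rRNA-depleted fit, and a gene was called at a Benjamini-Hochberg adjusted p under 0.05. Of the members, 162 were tested in the poly(A) fit and 163 in the rRNA-depleted fit. The 5 not tested in the poly(A) fit, znf219, znf384b, znf385d, ZNF521 and 1 of the znf423 identifiers, averaged at most 0.111 CPM in any WT group of poly(A) libraries. The WT 4 hpf poly(A) pair stood apart: 15.1% of its genes at 1 CPM or more differed at least 2-fold between the libraries, where the remaining pairs of that kind had 0.131% to 5.66%, and 23 of 141 members did so. Only the amanitin pairs are stated to be biological replicates, so p-values elsewhere measure the spread between these libraries, which may be technical. In whole embryos, fewer cells of a type and less RNA per cell cannot be told apart.

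Most ZNF members were already in the egg. A member was classed as maternal at a mean of 1 CPM or more in amanitin embryos at 2 hpf, and as transcription-dependent if it was at least 2-fold lower in amanitin than in WT embryos at 4 hpf and called. By this rule 101 of the 167 members (60.5%) were maternal only, 12 (7.19%) were both maternal and transcription-dependent, 37 (22.2%) were transcription-dependent only, and 17 (10.2%) were neither. Among all 33737 identifiers the shares were 39.9% maternal only, 2.46% both, 11.4% transcription-dependent only and 46.2% neither. Those identifiers include many with few or no reads, as 21525 were tested in the rRNA-depleted fit, against 163 of the 167 members. Among those tested, 13470 of 21525 genes and 101 of 163 members were maternal only, which are nearly equal shares. The maternal-only share is therefore not read as particular to the ZNF members. Transcription-dependent only were 3841 of the genes tested and 37 of the members tested. Where a count of members by class is given below with no count over all genes of that class, it is a description. Close to the limits, znf541 at 0.885 CPM fell outside the maternal class and znf1036 at 1.03 CPM inside it. At the other limit znf1090, with a log2 fold change of -0.93, fell outside the transcription-dependent class, and znf1008, with -1.06, inside it.

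The numbering split the family. Of the 76 members numbered 900 and above, 30 were maternal only, 9 both, 30 transcription-dependent only and 7 neither. Of the 91 numbered below 900, 71 were maternal only, 3 both, 7 transcription-dependent only and 10 neither. The members below 900 include the genes with a counterpart of the same number in mammals whose roles are known, whereas the split itself is by name and not by sequence.

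Among the maternal-only members, ZNF281 (ENSDARG00000035910), a regulator of the pluripotency network in mammalian stem cells, averaged 292 CPM over the WT poly(A) libraries, ZNF395 (ENSDARG00000060113) 275.6 CPM, znf1035 228.5 CPM, ZNF292 202.2 CPM and znf865 150.7 CPM. Among those in both classes the second ZNF281 identifier (ENSDARG00000000567) averaged 31.9 CPM, znf977 12.1 CPM, znf1136 7.44 CPM, znf1084 7.10 CPM and znf1059 6.80 CPM. Among the transcription-dependent-only members znf1065 averaged 41.3 CPM, znf1050 25.7 CPM, znf1042 25.3 CPM, znf1020 17.99 CPM and ZNF703 15.7 CPM. The members in neither class were low, with znf1090 at 1.59 CPM, ZNF385B at 1.52 CPM, znf1172 at 0.917 CPM, znf1109 at 0.749 CPM and znf1112 at 0.730 CPM.

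**Figure D1:**
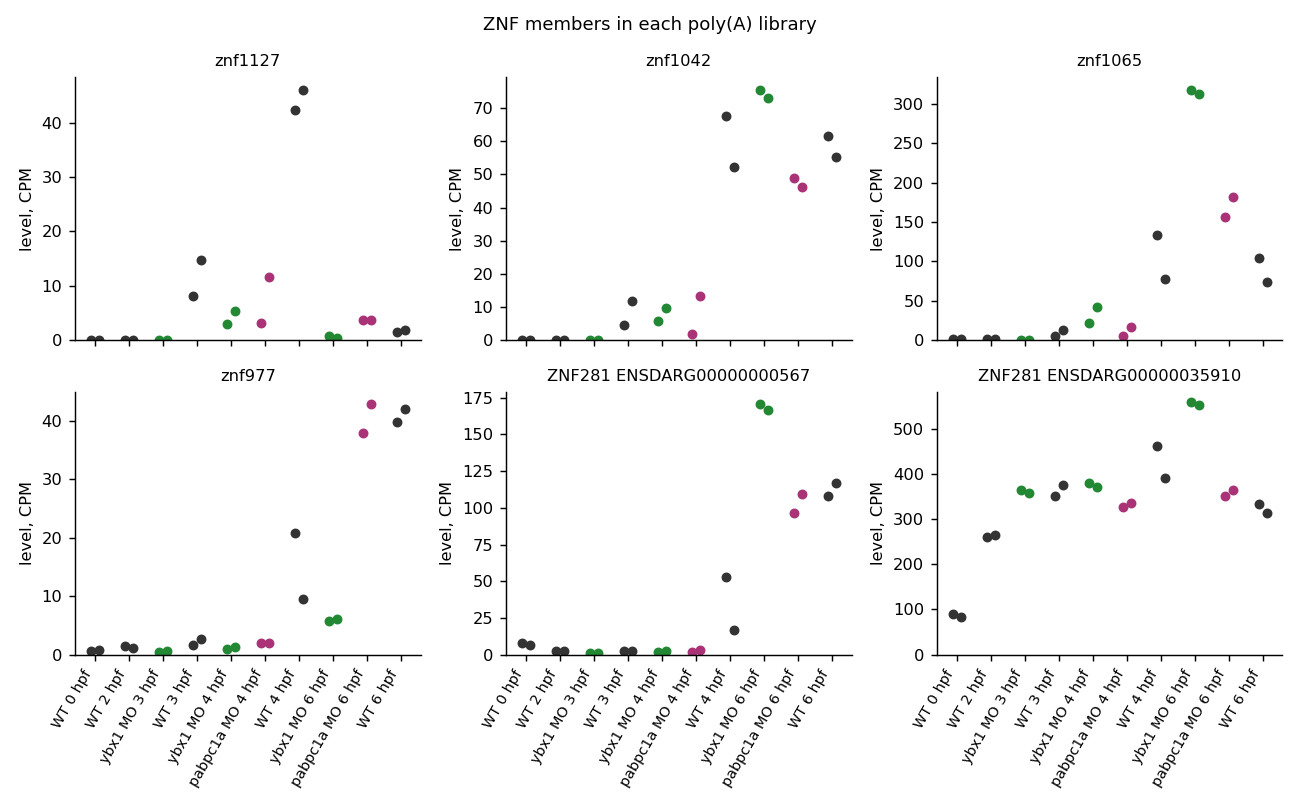
Level in CPM on linear axes, which differ between panels, of 6 members in each of the 20 poly(A) libraries (points, 2 per group; groups on the horizontal axis by stage). znf1127, znf1042 and znf1065 were near 0 through 2 hpf, ZNF281 ENSDARG00000000567 reached 108 and 117 CPM in WT at 6 hpf, and ZNF281 ENSDARG00000035910 was at 83.3 CPM or more in every library.

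The first comparison, WT 2 hpf against WT 0 hpf, covers a period before the embryo's genome becomes active. In poly(A) RNA, 76 of the 162 members tested were higher at 2 hpf and 9 lower, while 34.3% of all genes passed, 17.6% higher and 16.8% lower. The median log2 fold change was 0.92 over the members and 0.03 over all genes. Maternal-only members gave most of the calls, 65 of 101 higher and 7 lower, where 3459 of 13447 maternal-only genes were higher and 3516 lower. Of the 76 members numbered 900 and above 33 were higher and the other 43 did not pass, and of the 86 tested below 900 43 were higher and 9 lower.

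znf1035 had 208 and 209 CPM at 2 hpf, against 20.6 and 18.2 CPM at 0 hpf. This was a log2 fold change of 3.42 ± 0.20 (SE, n = 2 each; adjusted p = 4.57e-09 by edgeR's quasi-likelihood test), the largest among the members with 2 CPM or more. ZNF503, a repressor of the NLZ family with roles in the hindbrain and the optic fissure, had 41.5 and 42.0 CPM at 2 hpf, against 8.12 and 7.34 CPM at 0 hpf, a log2 fold change of 2.43 ± 0.19 (adjusted p = 6.77e-08). znf770 had 41.8 and 42.8 CPM at 2 hpf, against 7.96 and 9.45 CPM at 0 hpf (log2 fold change 2.28 ± 0.14). In all 3 the libraries of the stages were far apart. ZNF711, whose human counterpart is an X-linked intellectual disability gene, rose by 1.88 on the log2 scale and ZNF335, a subunit of a histone methylation complex and a microcephaly gene in humans, by 1.71. ZNF281 (ENSDARG00000035910) had 261 and 264 CPM at 2 hpf, against 89.8 and 83.3 CPM at 0 hpf (log2 fold change 1.60 ± 0.10).

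A few members moved the other way. znf451, a SUMO ligase, had 51.5 and 49.2 CPM at 2 hpf, against 138 and 136 CPM at 0 hpf, and fell by 1.44 on the log2 scale (SE 0.18). ZNF207, which binds BUB3 and microtubules at the mitotic spindle, had 77.8 and 77.3 CPM at 2 hpf, against 164 and 186 CPM at 0 hpf, and fell by 1.17 (SE 0.12). ZNF706 fell by 1.08 (SE 0.10). The count of 9 lower was 5 without WT 2 hpf replicate 2, and that of 7 lower among maternal-only members was 11 with these 2 groups alone in the fit. A level in poly(A) RNA moves with the amount of an mRNA and with the length of its poly(A) tail, and these cannot be told apart here.

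The first zygotic members appeared by 3 hpf. In WT 3 hpf against WT 2 hpf, 26 members were higher and 2 lower, where 4.59% of all genes passed, 3.28% higher and 1.3% lower, and 12 of the 37 transcription-dependent-only members were higher with the other 25 not passing. The rest of the 26 were maternal members, nearly all of them maternal only. znf1127 had 8.18 and 14.7 CPM at 3 hpf, against 0 and 0.0133 CPM at 2 hpf. znf1050 had 5.53 and 10.4 CPM at 3 hpf, against 0.0156 and 0.0400 CPM at 2 hpf. znf1042 had 4.4 and 11.7 CPM at 3 hpf, against 0.0234 and 0.0533 CPM at 2 hpf. In each of these genes the 2 hpf libraries held at most a few reads and the 3 hpf libraries many more. Among maternal-only members znf1035 rose further, by 0.88 on the log2 scale (SE 0.18, adjusted p = 0.00942), and znf451 fell further, by 0.66 (SE 0.18, adjusted p = 0.0457). The call was lost without WT 3 hpf replicate 2 and without either WT 2 hpf library for znf1035 (adjusted p = 0.0874, 0.114 and 0.104) and for znf451 (adjusted p = 0.466, 0.286 and 0.198). Leaving out WT 3 hpf replicate 2 gave 9 higher calls in all and 7 among transcription-dependent-only members, leaving out WT 2 hpf replicate 1 gave 5 and 4, leaving out its replicate 2 gave 7 and 5, and these 2 groups alone gave 42 in all.

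Between 3 and 4 hpf most transcription-dependent members rose. The rule for these members requires at least 2-fold more in WT than in amanitin embryos at 4 hpf, in rRNA-depleted libraries. A rise by that stage is therefore largely built in, and the counts by class are a description. In WT 4 hpf against WT 3 hpf, 48 members were higher and 18 lower, with 27.5% of all genes passing, 17.1% higher and 10.5% lower, and 29 of the 37 transcription-dependent-only members were higher with the other 8 not passing. Their median log2 fold change was 2.16, and over all 3374 genes of that class tested it was 2.74, with 2007 higher and 10 lower. Of the 12 members in both classes 8 were higher and 4 did not pass, whereas all 18 members called lower were maternal only. By number, 37 of the 76 members at 900 and above were higher and 1 lower.

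znf1065 had 134 and 77.8 CPM at 4 hpf, against 5.35 and 12.9 CPM at 3 hpf, a log2 fold change of 3.54 ± 0.57 (adjusted p = 0.00118). znf1061 had 27.0 and 14.7 CPM at 4 hpf, against 0.681 and 1.69 CPM at 3 hpf (4.14 ± 0.62), and znf1066 33.6 and 17.2 CPM, against 1.18 and 1.38 CPM (4.31 ± 0.68). ZNF281 (ENSDARG00000000567) had 53.1 and 16.6 CPM at 4 hpf, against 2.64 and 2.66 CPM at 3 hpf (3.71 ± 0.44). The stages did not overlap in any of these genes, although the 4 hpf libraries differed from each other, by over 3-fold for this ZNF281 identifier. Maternal members that fell were ZNF236, by 1.06 on the log2 scale, ZNF592, a member of the Z3 group that binds ZMYND8, by 1.22, and znf106b by 1.27. The 48 higher calls, the 29 and the 37 were 26, 17 and 24 with WT 4 hpf replicate 1 left out and 22, 13 and 18 with WT 3 hpf replicate 1 left out, and the 18 lower calls were 11 and 28 when replicates 1 and 2 of WT 4 hpf were left out and 10 and 11 when those of WT 3 hpf were. With these 2 groups alone in edgeR's fit none was called, with an adjusted p of 0.0655 for znf1061, znf1065, znf1066, znf977 and that ZNF281 identifier, 0.0665 for ZNF236, 0.069 for ZNF592 and 0.189 for znf106b, while DESeq2 on all libraries gave 55 higher and 18 lower.

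From 4 to 6 hpf members moved in both directions. In WT 6 hpf against WT 4 hpf, 52 members were higher and 48 lower, 61.7% of those tested, where 59.7% of all genes passed, 27.9% higher and 31.8% lower. Scaling by median of ratios gave 69 higher and 38 lower, and DESeq2 68 higher and 37 lower; that scaling puts the median of all genes at 0.22 on the log2 scale. Of the transcription-dependent-only members 12 were higher and 5 lower (median 0.68), where 1399 of all genes of that class were higher and 188 lower (median 1.32). Of the 12 members in both classes 8 were higher and the other 4 did not pass, and of the maternal-only members 31 were higher and 41 lower. The 12 and 5 transcription-dependent-only calls were 6 higher without WT 6 hpf replicate 1 and 3 lower without its replicate 2, the 8 were 5 without WT 4 hpf replicate 2, and the 31 and 41 maternal-only calls were 18 and 25 with these 2 groups alone.

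ZNF703, the other NLZ repressor, had 66.9 and 79.8 CPM at 6 hpf, against 4.59 and 2.02 CPM at 4 hpf, a log2 fold change of 4.48 ± 0.36 (adjusted p = 4.92e-08). ZNF827, a protein of telomeric chromatin that recruits the NuRD complex, had 8.12 and 15.7 CPM at 6 hpf, against 0.209 and 0.157 CPM at 4 hpf (6.02 ± 0.42). ZNF281 (ENSDARG00000000567) rose further, to 108 and 117 CPM at 6 hpf, against 53.1 and 16.6 CPM at 4 hpf (1.69 ± 0.40; adjusted p = 0.00248, and 0.0541 with these 2 groups alone). Of the 48 members higher in WT 4 hpf against WT 3 hpf, 26 were higher, 2 lower and 20 not called in WT 6 hpf against WT 4 hpf. No such count was made over all genes, so these counts are a description. The 2 lower members were znf1058 and znf1127, which were also called higher in WT 3 hpf against WT 2 hpf. znf1127 had 1.45 and 1.86 CPM at 6 hpf, against 42.3 and 46.1 CPM at 4 hpf, and fell by 4.75 on the log2 scale (SE 0.61, adjusted p = 1.82e-05).

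Maternal members that were low by 6 hpf include ZNF710 (ENSDARG00000014680), with 5.06 and 5.28 CPM at 6 hpf, against 50.6 and 67.1 CPM at 4 hpf (log2 fold change -3.51 ± 0.18). ZNF804A, whose human counterpart is a psychiatric risk gene, had 0.272 and 0.348 CPM at 6 hpf, against 4.96 and 5.78 CPM at 4 hpf (-4.14 ± 0.31). znf296 had 0.196 and 0.319 CPM at 6 hpf, against 5.11 and 5.80 CPM at 4 hpf (-4.46 ± 0.32). Over the WT course, 14 of the 162 members peaked at 0 hpf, 16 at 2 hpf, 32 at 3 hpf, 24 at 4 hpf and 76 at 6 hpf, by the mean of the libraries. This is 8.64%, 9.88%, 19.8%, 14.8% and 46.9% of the members, where of all 22377 genes tested 24.4%, 11.1%, 15.9%, 10.4% and 38.2% peaked at these stages. Of the maternal-only members 31 peaked at 3 hpf and 35 at 6 hpf, and of the transcription-dependent-only members 12 peaked at 4 hpf and 24 at 6 hpf.

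**Figure D2:**
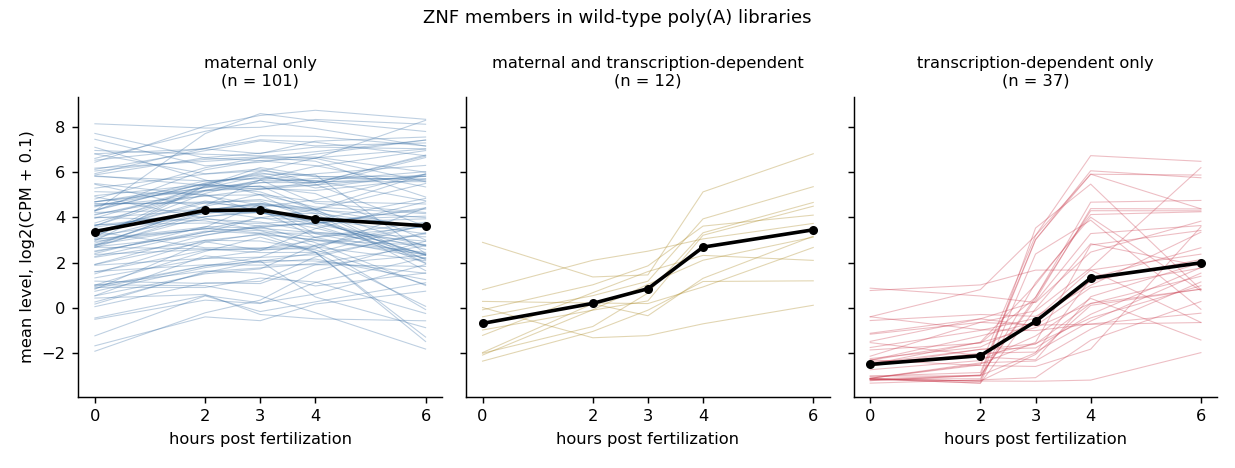
Mean level per WT stage, as log2(CPM + 0.1), against hours post fertilization, with a thin line per member and the black line the median, for the 101 maternal-only, the 12 maternal and transcription-dependent and the 37 transcription-dependent-only members. The maternal-only median changed little after 2 hpf, while the other medians climbed between 2 and 4 hpf, each line being a mean of 2 libraries. The class rule builds in much of that climb.

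The sum over the transcription-dependent-only members gives the course in single libraries. Much of its rise to 4 hpf is built in by the class rule, so the sum is a description. It was 6.10 and 9.96 CPM at 0 hpf, 11.2 and 11.7 CPM at 2 hpf, 50.0 and 93.5 CPM at 3 hpf, 616 and 402 CPM at 4 hpf, and 524 and 464 CPM at 6 hpf in WT. The stages from 2 to 4 hpf did not overlap, and those at 4 and 6 hpf did. Over the members in both classes the sum was 15.1 and 12.6 CPM at 0 hpf, 17.0 and 15.8 CPM at 2 hpf, 20.8 and 27.9 CPM at 3 hpf, 141 and 70.4 CPM at 4 hpf, and 262 and 263 CPM at 6 hpf.

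**Figure D3:**
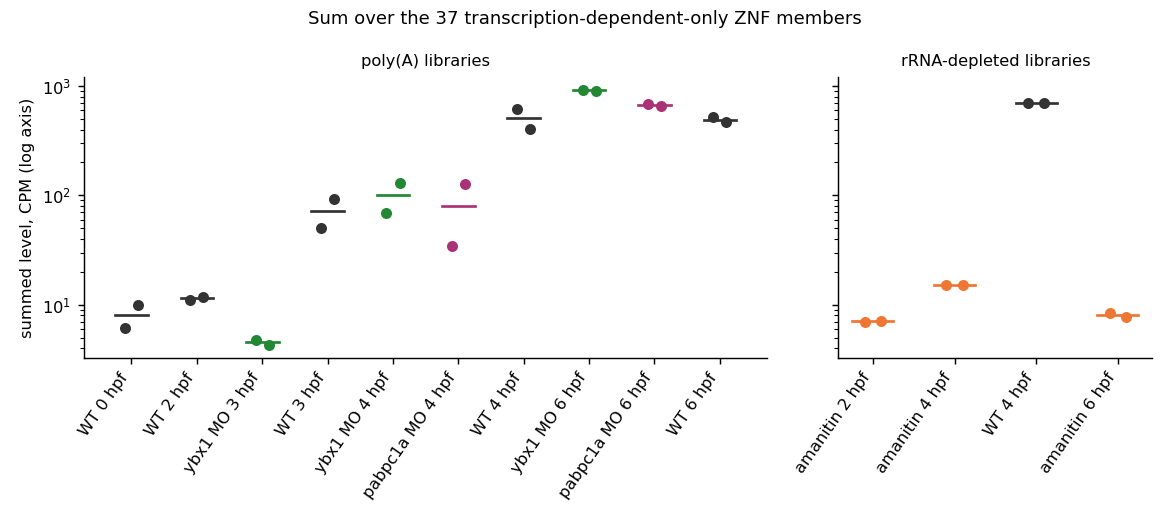
Summed level in CPM, on a log axis, of the 37 transcription-dependent-only members in each library (points) with the group mean (line), in poly(A) libraries on the left and rRNA-depleted libraries on the right. At 4 hpf the pabpc1a MO libraries were at 34.6 and 126 CPM and the ybx1 MO libraries at 69.8 and 131 CPM, against 616 and 402 CPM in WT, and amanitin libraries stayed at 15.2 CPM or less.

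The lists by role were read in the same fits. Of all genes 27.9% rose and 31.8% fell in WT 6 hpf against WT 4 hpf. In WT 2 hpf against WT 0 hpf the shares were 17.6% and 16.8%. The lists are small and were not tested against these shares. In the NLZ pair, ZNF503 and ZNF703, both members rose in WT 6 hpf against WT 4 hpf, ZNF503 to 43.9 and 46.3 CPM at 6 hpf, against 16.5 and 23.8 CPM at 4 hpf (log2 fold change 1.16 ± 0.18). The courses of the pair differed, since ZNF503 had been called lower in WT 4 hpf against WT 3 hpf. Its level at 6 hpf was close to that at 2 hpf given above. Of the 9 tested members linked to RNA and ribosomes, 2 rose and 5 fell between these stages. znf593, a factor of ribosome biogenesis, rose by 0.96, while ZNF598, a ubiquitin ligase that senses collided ribosomes, fell by 1.59 and ZNF622, which acts in maturation of the large ribosomal subunit, by 0.67 (adjusted p = 0.000866, and 0.0638 with these 2 groups alone). All 3 members of the Z3 group (ZNF532, ZNF592 and ZNF687) rose in WT 2 hpf against WT 0 hpf, ZNF592 by 1.36 on the log2 scale. Of the 11 tested promoter activators 5 rose and 4 fell in that comparison.

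Identifiers that share a number did not always share a class. There were 14 numbers with more than 1 identifier, 30 identifiers in all, and in 7 of these numbers the identifiers fell in different classes. The grouping is by name, so a shared number need not mean copies of 1 gene, as with ZNF385A, ZNF385B and ZNF385C. Some of the 7 differ because an identifier was in neither class at a low level. For example, znf384b and 1 znf423 identifier were too low to be tested. The 2 ZNF281 identifiers, in different classes, differed at every stage. ENSDARG00000035910, maternal only, had 89.8 and 83.3 CPM at 0 hpf, 261 and 264 CPM at 2 hpf, 351 and 375 CPM at 3 hpf, 461 and 390 CPM at 4 hpf, and 333 and 312 CPM at 6 hpf in WT. ENSDARG00000000567, in both classes, had 7.99 and 6.72 CPM, 2.46 and 2.51 CPM, 2.64 and 2.66 CPM, 53.1 and 16.6 CPM, and 108 and 117 CPM at the same stages. For near-identical copies, such as the members from znf1061 to znf1068 may be, reads that match several genes could have been lost or miscounted, so single values of these members are uncertain.

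Before the knockdowns are described, the targets and the stage of the embryos were looked at. ybx1 mRNA was not called in ybx1 MO embryos at 3, 4 or 6 hpf (log2 fold changes 0.43, -0.44 and 0.24), and pabpc1a mRNA fell by 0.58 in pabpc1a MO embryos at 4 hpf (adjusted p = 0.00737) but was not called at 6 hpf (-0.20). Whether the morpholinos block translation or splicing is not given, so mRNA levels do not check the labels. Markers of stage moved with the knockdowns. The sum over 10 mRNAs of zygotic, enveloping layer, yolk and gastrula genes was 6.75 and 5.66 CPM in ybx1 MO embryos at 3 hpf, against 91.0 and 172 CPM in WT. At 4 hpf it was 302 and 395 CPM in ybx1 MO and 80.6 and 217 CPM in pabpc1a MO embryos, against 1316 and 559 CPM in WT. At 6 hpf it was 6546 and 6541 CPM in ybx1 MO and 5627 and 5079 CPM in pabpc1a MO embryos, against 5768 and 4731 CPM in WT. Of the 10, 5 were called lower in ybx1 MO at 3 hpf, 5 lower and 1 higher at 4 hpf, and 5 lower in pabpc1a MO at 4 hpf. The 10 did not move alike in ybx1 MO at 4 hpf. There klf17 had 117 and 146 CPM, against 117 and 134 CPM in WT, and irx7 53.5 and 53.6 CPM, against 47.4 and 59.1 CPM. By contrast krt18a.1 had 9.56 and 21.2 CPM, against 380 and 90.8 CPM in WT. At 6 hpf 2 of the 10 were called lower in ybx1 MO and 1 in pabpc1a MO, none was called higher, and most of the sum came from krt8 and krt18a.1. None of the 10 was at 0. The sum over 4 egg mRNAs at 4 hpf was 567 and 544 CPM in ybx1 MO and 689 and 579 CPM in pabpc1a MO embryos, against 214 and 344 CPM in WT. Most of each sum came from buc. In ybx1 MO 2 of the 4 were called higher, while zar1l had 16.1 and 14.7 CPM, against 18.9 and 18.2 CPM in WT. The part of stage in the results below was not tested.

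At 3 hpf the early zygotic ZNF members were at or near 0 in ybx1 MO embryos. In ybx1 MO against WT, 2 members were higher and 51 lower, where 14.8% of all genes passed, 4.56% higher and 10.2% lower, with a median log2 fold change of -0.43 over the members and -0.07 over all genes. Of the transcription-dependent-only members 20 of 37 were lower and the other 17 did not pass (median -2.20), where 614 of all genes of that class were lower and 37 higher (median -1.21). Of the members in both classes 7 of 12 were lower. Of the 101 maternal-only members 19 were lower and 2 higher. Members numbered 900 and above made up 42 of the 51 lower calls, with a median of -1.76 over the 76, against -0.23 over the 86 tested below 900.

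znf1127 had 0 and 0 CPM in ybx1 MO embryos, against 8.18 and 14.7 CPM in WT. znf1065 had 0.187 and 0.120 CPM in ybx1 MO embryos, against 5.35 and 12.9 CPM in WT, and fell by 5.88 on the log2 scale (SE 0.76, adjusted p = 0.000592). znf1020 had 0.124 and 0.140 CPM in ybx1 MO embryos, against 5.62 and 12.6 CPM in WT, and fell by 6.08 (SE 0.86). In all 3 both ybx1 MO libraries lay far below both WT libraries. Among maternal members znf1171 had 0.228 and 0.290 CPM in ybx1 MO embryos, against 1.90 and 2.12 CPM in WT (log2 fold change -2.94 ± 0.39), and ZNF503 15.5 and 15.8 CPM, against 32.7 and 37.0 CPM (-1.15 ± 0.18). ZNF653 was 1 of the 2 members higher (0.65 ± 0.21, adjusted p = 0.0441), a call that was lost without any 1 of the 4 libraries (adjusted p = 0.106 to 0.244). The 51 lower calls were 28 without ybx1 MO 3 hpf replicate 1, 30 without its replicate 2, 33 without WT 3 hpf replicate 2 and 79 with these 2 groups alone, the 42 were 26 and 25 without the ybx1 MO replicates 1 and 2, and the 20 were 12 without either.

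At 4 hpf the zygotic members were lower in both knockdowns. The ybx1 MO and pabpc1a MO comparisons share the same WT libraries, so their likeness is not independent. In ybx1 MO against WT 11 members were higher and 66 lower, where 32.2% of all genes passed, 12.8% higher and 19.4% lower. In pabpc1a MO against WT 16 were higher and 62 lower, where 34.3% passed, 13.5% higher and 20.8% lower. Of the 37 transcription-dependent-only members 29 were lower in ybx1 MO (median -2.66) and 29 in pabpc1a MO (median -2.55), and in each the other 8 did not pass. Over all genes of that class 1763 were lower and 32 higher in ybx1 MO (median -2.27) and 2024 lower and 29 higher in pabpc1a MO (median -2.67). Of the 12 members in both classes 11 were lower in each. All 11 members higher in ybx1 MO and all 16 higher in pabpc1a MO were maternal only. More of the maternal-only members were lower, 22 in ybx1 MO and 19 in pabpc1a MO.

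ZNF281 (ENSDARG00000000567) had 1.63 and 2.40 CPM in ybx1 MO and 1.71 and 2.86 CPM in pabpc1a MO embryos, against 53.1 and 16.6 CPM in WT. The log2 fold change was -4.12 ± 0.45 in ybx1 MO (adjusted p = 5.29e-05) and -3.92 ± 0.44 in pabpc1a MO (adjusted p = 6.28e-05). znf977 had 0.880 and 1.26 CPM in ybx1 MO and 1.90 and 2.06 CPM in pabpc1a MO embryos, against 20.9 and 9.54 CPM in WT (-3.83 ± 0.33 and -2.94 ± 0.31). The members that had led at 3 hpf were present but low. znf1042 had 5.65 and 9.70 CPM in ybx1 MO and 1.95 and 13.1 CPM in pabpc1a MO embryos, against 67.6 and 52.2 CPM in WT (-2.97 ± 0.71 and -2.99 ± 0.71). znf1065 had 21.9 and 41.9 CPM in ybx1 MO and 5.38 and 16.9 CPM in pabpc1a MO embryos, against 134 and 77.8 CPM in WT (-1.73 ± 0.53 and -3.25 ± 0.56). In ybx1 MO the call of znf1065 (adjusted p = 0.0287) was lost without ybx1 MO 4 hpf replicate 1 (0.191) and without WT 4 hpf replicate 1 (0.192) and was 0.0602 with these 2 groups alone, and that of znf1042 without ybx1 MO 4 hpf replicate 1 (0.0873). By contrast the maternal ZNF281 identifier (ENSDARG00000035910) was not called in ybx1 MO (-0.19 ± 0.09, adjusted p = 0.138; 0.0211 without WT 4 hpf replicate 2) and fell by 0.36 in pabpc1a MO embryos (SE 0.09, adjusted p = 0.0065; 0.0647 without pabpc1a MO 4 hpf replicate 1 and 0.184 without WT 4 hpf replicate 1).

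Some maternal members were higher than in WT at 4 hpf. ZNF236 had 39.6 and 38.9 CPM in ybx1 MO and 33.8 and 39.3 CPM in pabpc1a MO embryos, against 17.1 and 23.1 CPM in WT (0.96 ± 0.17 and 0.86 ± 0.17). znf106b had 29.2 and 28.9 CPM in ybx1 MO embryos, against 5.07 and 14.1 CPM in WT (1.59 ± 0.29). znf365 had 2.75 and 2.30 CPM in pabpc1a MO embryos, against 0.577 and 0.951 CPM in WT (1.72 ± 0.41), and znf451 44.8 and 44.9 CPM, against 16.8 and 27.0 CPM (1.03 ± 0.18). The sum over the 4 egg mRNAs given above was higher in the same groups, with 2 of the 4 called higher in ybx1 MO and 3 in pabpc1a MO, and their part was not tested. The 11 higher calls in ybx1 MO were 7 without either of its replicates, 4 and 20 when replicates 1 and 2 of WT 4 hpf were left out, and the 29 lower transcription-dependent-only members were 17 without ybx1 MO 4 hpf replicate 1 and 19 without WT 4 hpf replicate 1. The 16 higher calls in pabpc1a MO were 9 without either of its replicates and 10 without WT 4 hpf replicate 1. With the groups compared alone in edgeR's fit, 21 members were lower and none higher in ybx1 MO, 12 of the lower ones transcription-dependent only, and none was called in pabpc1a MO, where ZNF281 (ENSDARG00000000567), znf977 and znf1065 had an adjusted p of 0.0692, while DESeq2 gave 16 higher and 66 lower.

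By 6 hpf the summed level of the zygotic members was above WT in both knockdowns. Summed over the 37 transcription-dependent-only members, levels were 922 and 899.9 CPM in ybx1 MO and 687 and 652 CPM in pabpc1a MO embryos, against 524 and 464 CPM in WT. Much of that excess came from znf1065, whose values are given below. The median log2 fold change over the 37 members was 0.24 in ybx1 MO and 0.19 in pabpc1a MO. In ybx1 MO against WT 29 members were higher and 33 lower, where 27.5% of all genes passed, 11.9% higher and 15.6% lower, and 5 of the transcription-dependent-only members were higher and 6 lower. In pabpc1a MO against WT 11 members were higher and 7 lower, where 9.16% of all genes passed, 4.55% higher and 4.61% lower, and none of the transcription-dependent-only or both-class members was called by edgeR. In these lists 1 both-class and 1 transcription-dependent-only member were higher at an unadjusted p under 0.05, and DESeq2 also called 1 of each.

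Members lower in ybx1 MO embryos at 6 hpf included znf977, ZNF827, znf1121 and znf1019. znf977 had 5.83 and 6.05 CPM in ybx1 MO and 37.9 and 42.8 CPM in pabpc1a MO embryos, against 39.7 and 42.0 CPM in WT, with log2 fold changes of -2.78 ± 0.31 (adjusted p = 1.1e-05) and -0.02 ± 0.28. ZNF827 had 2.38 and 1.89 CPM in ybx1 MO and 9.42 and 8.18 CPM in pabpc1a MO embryos, against 8.12 and 15.7 CPM in WT (-2.48 ± 0.35 and -0.44 ± 0.33). znf1121 fell by 2.60 and znf1019 by 2.39 in ybx1 MO embryos. In these genes ybx1 MO embryos lay below both other groups. Of the 51 members lower in ybx1 MO at 3 hpf, 40 (78.4%) were lower at 4 hpf and 10 (19.6%) at 6 hpf, where 7 others of the 51 were higher. Of all 2291 genes lower at 3 hpf, 62.1% were lower at 4 hpf and 25.6% at 6 hpf. The 8 members lower at all 3 stages, listed for this reason after their values were seen, were znf977, znf1004, znf1019, znf1021, znf1113, znf1115, znf1124 and znf1167. Genes lower at all 3 stages were not counted over all genes, so the 8 are not read as particular to the ZNF members.

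Other members exceeded WT at 6 hpf. ZNF335 had 53.1 and 54.1 CPM in ybx1 MO and 28 and 27.7 CPM in pabpc1a MO embryos, against 25.9 and 22.1 CPM in WT (1.16 ± 0.15 and 0.21 ± 0.15). znf574 had 31.8 and 31.5 CPM in ybx1 MO embryos, against 12.3 and 11.9 CPM in WT (1.39 ± 0.17). In ybx1 MO against WT at 6 hpf 11.9% of all genes were higher. Of the 9 tested members linked to RNA and ribosomes 4 were higher in ybx1 MO embryos and the other 5 did not pass, ZNF622 by 0.61 (SE 0.15, adjusted p = 0.00583; 0.0813 without WT 6 hpf replicate 2). znf1065 had 318 and 313 CPM in ybx1 MO and 157 and 182 CPM in pabpc1a MO embryos, against 105 and 73.3 CPM in WT (1.83 ± 0.53, adjusted p = 0.0253, and 0.93 ± 0.52, adjusted p = 0.314); the call in ybx1 MO was lost without any 1 of the 4 libraries (adjusted p = 0.062 to 0.151). In pabpc1a MO embryos the lowest adjusted p was that of znf740b, with 117 and 118 CPM, against 59.2 and 54.0 CPM in WT (1.05 ± 0.11, adjusted p = 2.49e-05). ZNF395 (ENSDARG00000024195) was also higher, with 7.91 and 13.4 CPM, against 3.94 and 4.58 CPM (1.33 ± 0.20), whereas znf576.1 fell by 0.75 and znf292a by 0.70, the call of znf292a having an adjusted p of 0.00198, and 0.0512 with these 2 groups alone.

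The higher calls in ybx1 MO at 6 hpf were 16 without its replicate 1, 13 without its replicate 2 and 14 without WT 6 hpf replicate 2, and the lower calls were 19 without its replicate 1 and 18 without its replicate 2. The 5 and 6 transcription-dependent-only calls were 2 and 3 without either ybx1 MO library, no higher one was left without WT 6 hpf replicate 2, and 13 were higher with these 2 groups alone. The 11 higher calls in pabpc1a MO at 6 hpf were 4 without its replicate 2, 4 without WT 6 hpf replicate 2, 4 with these 2 groups alone and 18 by DESeq2, and its 7 lower calls were 4 without either of its replicates or WT 6 hpf replicate 2, and 1 with these 2 groups alone.

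The change of the effect with stage was tested as an interaction. The ybx1 MO effect at 6 hpf was higher than at 4 hpf for 61 members and lower for 16, where 26.4% of all genes passed, 14.8% higher and 11.6% lower, and 23 of the 37 transcription-dependent-only members were among the 61. The pabpc1a MO effect at 6 hpf was higher than at 4 hpf for 48 members and lower for 10, where 22.8% of all genes passed, 14.1% higher and 8.72% lower, with 24 of the transcription-dependent-only members among the 48. Over all genes of that class the median effect at 4 hpf was also negative in both knockdowns, as given above. The class counts are therefore not read as particular to the ZNF members. For ZNF281 (ENSDARG00000000567) the effect differed by 4.71 ± 0.58 between 6 and 4 hpf in ybx1 MO (adjusted p = 0.000166) and by 3.80 ± 0.57 in pabpc1a MO (adjusted p = 0.000945). znf1059 differed by 4.58 ± 0.54 in ybx1 MO and znf1061 by 4.76 ± 0.81 in pabpc1a MO. In the other direction, ZNF236 differed by -1.45 ± 0.24 in ybx1 MO and -0.97 ± 0.24 in pabpc1a MO, and znf989 by -2.04 ± 0.31 in ybx1 MO. The ybx1 MO effect at 4 hpf differed from that at 3 hpf for 7 members, 4 higher and 3 lower, where 2.05% of all genes passed, 0.769% higher and 1.28% lower, and ZNF281 (ENSDARG00000000567) was among those lower (-2.87 ± 0.61, adjusted p = 0.0319). That call was lost in each of 6 of the 8 fits without 1 library (adjusted p = 0.0834 to 0.156), and the 7 calls ranged from 0 without ybx1 MO 3 hpf replicate 2 to 37 without WT 4 hpf replicate 2. Both effects at 4 hpf rest on the WT 4 hpf pair described above. The 24 transcription-dependent-only members were 14 without pabpc1a MO 4 hpf replicate 1, the 23 were 13 without ybx1 MO 4 hpf replicate 1, the 16 lower were 10 without ybx1 MO 6 hpf replicate 2, the 48 were 31 without pabpc1a MO 4 hpf replicate 1, and the 10 lower were 19 without WT 4 hpf replicate 2. With the 4 groups alone the pabpc1a MO interaction gave 27 higher calls, 12 of them transcription-dependent only, and none lower, and the ybx1 MO interaction 6 lower.

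**Figure D4:**
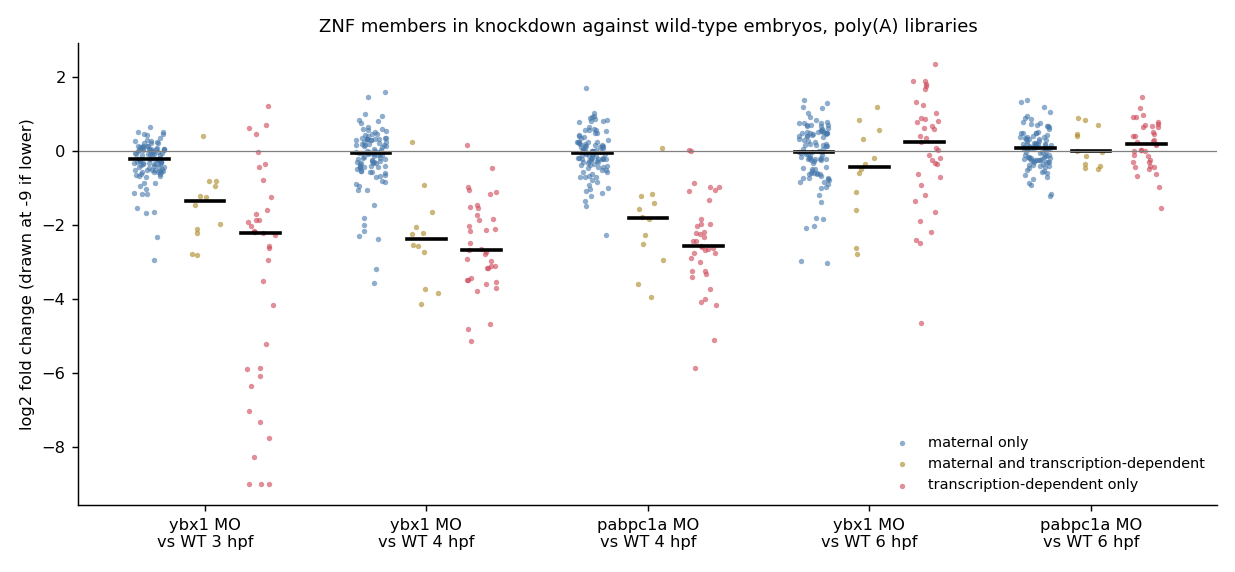
log2 fold change of each member (points) in the knockdown over WT, by class, with the median as a bar, for the 5 knockdown comparisons; 3 points below -9 are drawn at -9, and values of members near 0 counts depend on the constant that edgeR adds. The transcription-dependent-only medians were -2.20, -2.66 and -2.55 at 3 and 4 hpf, and at 6 hpf that in ybx1 MO was 0.24.

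The knockdowns were also set against each other. In ybx1 MO against pabpc1a MO at 4 hpf 8 members were higher and 24 lower, where 16.8% of all genes passed, 7.95% higher and 8.82% lower, and DESeq2 gave 19 higher and 29 lower. All 8 higher calls and 19 of the 24 lower were maternal only, and 3 of the 37 transcription-dependent-only members were lower. This is 26.7% of the maternal-only and 8.11% of the transcription-dependent-only members, where 23.3% and 7.56% of all genes of these classes passed. znf1171 had 0.178 and 0.449 CPM in ybx1 MO, against 2.01 and 2.25 CPM in pabpc1a MO embryos (-2.79 ± 0.38, adjusted p = 0.000139), while in WT it had 4.59 and 2.72 CPM. znf1167 had 0.781 and 1.19 CPM in ybx1 MO, against 4.54 and 3.17 CPM in pabpc1a MO embryos (-1.97 ± 0.31). znf451 had 21.3 and 22.0 CPM in ybx1 MO, against 44.8 and 44.9 CPM in pabpc1a MO embryos (-1.05 ± 0.18), and was thus near WT in ybx1 MO. In the other direction znf800b had 25.4 and 22.7 CPM in ybx1 MO, against 9.59 and 10.3 CPM in pabpc1a MO embryos (1.28 ± 0.13). At 6 hpf 26 members were higher and 37 lower in ybx1 MO than in pabpc1a MO, where 27.8% of all genes passed, 12.3% higher and 15.5% lower. Among them znf977 fell by 2.76 and znf1021 by 2.43, while ZNF319 was higher by 1.57 and ZNF335 by 0.95. The 8 higher and 24 lower calls at 4 hpf were 5 and 13 without ybx1 MO replicate 1, 4 and 7 without its replicate 2, 3 and 14 without pabpc1a MO replicate 1, and 13 and 10 without its replicate 2. At 6 hpf the 26 higher were 16 without ybx1 MO replicate 1 and 40 with these 2 groups alone, and the 37 lower were 23 without ybx1 MO replicate 2.

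The rRNA-depleted libraries show the members in amanitin embryos and in WT at 4 hpf, without a poly(A) selection. In amanitin embryos the sum over the 10 stage mRNAs was 5.28 and 5.31 CPM at 2 hpf and 13.4 and 13.4 CPM at 4 hpf. It was 6.61 and 4.94 CPM at 6 hpf, and 1037 and 1020 CPM in WT at 4 hpf. Of the 10, 5 were called higher and 0 lower in amanitin 4 hpf against 2 hpf. How complete the block of transcription was, was not tested. The comparison of amanitin 4 hpf with WT 4 hpf set the transcription-dependent class, so it is given as a description. In it 35 members were higher in amanitin embryos and 81 lower, where 68.9% of all genes passed, 32.7% higher and 36.2% lower. ZNF281 (ENSDARG00000000567) had 23.9 and 25.2 CPM in amanitin embryos, against 77.8 and 71.8 CPM in WT. Among maternal-only members that were higher in amanitin embryos, znf469, whose human counterpart is a brittle cornea syndrome gene, had 9.18 and 10.7 CPM, against 1.29 and 1.12 CPM in WT (log2 fold change 3.03). znf106b had 50.9 and 51.2 CPM in amanitin embryos, against 17.8 and 18.8 CPM in WT (1.49).

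Some transcription-dependent members had more reads in amanitin embryos at 4 hpf than at 2 hpf. In amanitin 4 hpf against amanitin 2 hpf 43 members were higher and 20 lower, where 32.3% of all genes passed, 15.6% higher and 16.7% lower, and 14 of the 37 transcription-dependent-only members were higher with the other 23 not passing. That class requires a mean under 1 CPM at 2 hpf, the baseline of this comparison, so its count is a description. znf1042 had 2.34 and 2.40 CPM at 4 hpf, against 0.0715 and 0.0579 CPM at 2 hpf in amanitin embryos (5.15 ± 0.24, adjusted p = 6.01e-13), and it had 71.8 and 68.6 CPM in WT at 4 hpf. znf1127 had 0.939 and 1.17 CPM at 4 hpf in amanitin embryos, where it had 0 and 0 CPM at 2 hpf. The sum over these 37 members was 6.97 and 7.14 CPM at 2 hpf, 15.2 and 15.1 CPM at 4 hpf, and 8.34 and 7.78 CPM at 6 hpf in amanitin embryos. In WT at 4 hpf it was 700.5 and 698 CPM. These sums are a description, since the class was chosen on the amanitin 2 and 4 hpf and WT 4 hpf libraries. Among maternal members znf469 rose by 2.71 and znf1152 by 1.21, while ZNF592 fell by 0.59. The 43 higher calls were 28 without amanitin 4 hpf replicate 1 and 25 without amanitin 2 hpf replicate 2, and the 20 lower calls were 11 without amanitin 4 hpf replicate 1 and 11 without amanitin 2 hpf replicate 1.

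In amanitin embryos most members declined between 4 and 6 hpf. In amanitin 6 hpf against amanitin 4 hpf 23 members were higher and 111 lower, where 67.7% of all genes passed, 33.1% higher and 34.6% lower, with a median log2 fold change of -1.43 over the members and -0.01 over all genes. At least 2-fold lower were 60.1% of the members tested, against 28% of all genes. The median of all genes is near 0 because the scaling sets it there, so these are changes relative to the typical mRNA. Of the 101 maternal-only members 73 were lower and 19 higher, where 5929 of 13470 genes of that class were lower and 5537 higher.

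Of the 76 members numbered 900 and above, 65 were lower and 2 higher, the median was -2.47 and 86.8% were at least 2-fold lower, against 46 lower, 21 higher, a median of -0.54 and 36.8% in the 87 tested below 900. The class rule used the amanitin 4 hpf libraries, the baseline here, and the maternal-only class leaves out members called at least 2-fold lower there than in WT. Within the maternal-only members all 30 numbered 900 and above were lower (median -2.52; 93.3% at least 2-fold), against 43 lower and 19 higher of 71 below 900 (median -0.56; 39.4% at least 2-fold). Summed over the members numbered 900 and above, levels were 1183 and 1173 CPM at 2 hpf, 1325 and 1346 CPM at 4 hpf, and 527 and 532 CPM at 6 hpf in amanitin embryos. The sum below 900 was 4299 and 4259 CPM, 4313 and 4382 CPM, and 4574 and 4703 CPM at the same stages. With members at 0 in 1 stage set to the bound that 3 counts per library allow, the medians were -2.06 at 900 and above and -1.34 over all members; no maternal-only member was at 0 in both libraries of a stage. Leaving out single libraries left 108 to 110 members lower.

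**Figure D5:**
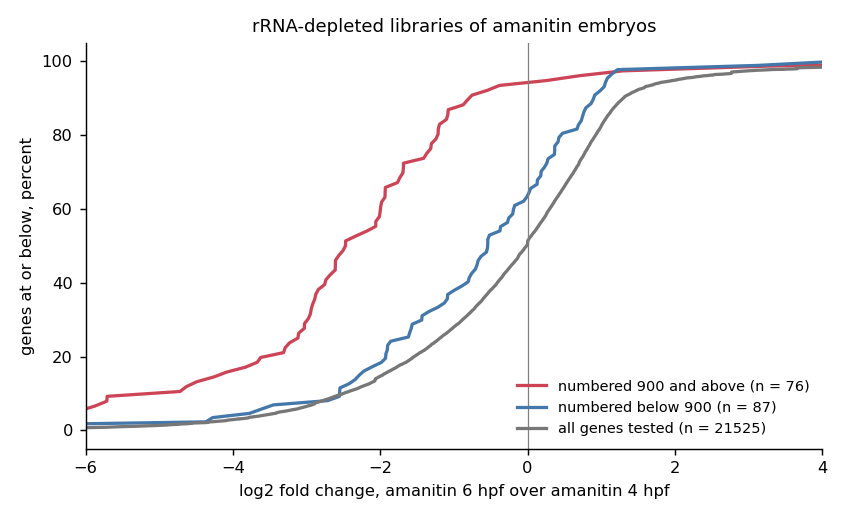
Percent of genes at or below each log2 fold change of amanitin 6 hpf over amanitin 4 hpf, for the 76 members numbered 900 and above, the 87 tested below 900 and all 21525 genes tested; the axis is cut at -6 and 4. The curve of the members numbered 900 and above lies left of the others through most of its range, with a median of -2.47 against -0.54 below 900.

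znf654 had 2.04 and 2.27 CPM at 6 hpf, against 43.6 and 45.4 CPM at 4 hpf in amanitin embryos, a log2 fold change of -4.37 ± 0.09 (adjusted p = 6.15e-21), and its poly(A) level in WT was 101 and 99.0 CPM at 6 hpf, against 46.0 and 39.6 CPM at 4 hpf. ZNF335 had 4.36 and 4.01 CPM at 6 hpf, against 48.1 and 54.4 CPM at 4 hpf in amanitin embryos (-3.61 ± 0.08). All 3 members of the Z3 group fell, ZNF592 by 3.77, ZNF532 by 2.55 and ZNF687 by 2.55, where 34.6% of all genes were lower. In each the 6 hpf libraries lay far below the 4 hpf libraries. znf770 fell by 2.42 and znf1035 by 1.08. In the other direction ZNF366, a corepressor known from dendritic cells in humans, had 6.43 and 5.33 CPM at 6 hpf, against 0.347 and 0.273 CPM at 4 hpf in amanitin embryos (4.24 ± 0.29). znf346, which binds double-stranded RNA, rose by 1.22, ZNF207 by 1.04 and ZNF281 (ENSDARG00000035910) by 0.98 relative to the typical mRNA. znf1019 had 3.48 and 4.04 CPM at 6 hpf, against 0.0144 and 0.0273 CPM at 4 hpf, and is given without a fold because the 4 hpf values are 1 and 2 reads.

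The members that declined in amanitin embryos were also followed in WT poly(A) RNA. Of the 111 members lower in amanitin 6 hpf against 4 hpf, 36 were higher, 31 lower and 44 not called in WT 6 hpf against WT 4 hpf. This is 32.4% higher and 27.9% lower, where of all 7446 genes lower in that amanitin comparison 23.7% were higher and 43.5% lower in WT. Of the 76 members higher in WT 2 hpf against 0 hpf, 20 (26.3%) were higher, 11 (14.5%) lower and 45 not called in amanitin 4 hpf against 2 hpf. Of all 3928 genes higher in WT 2 hpf against 0 hpf, 17.6% were higher and 20.3% lower there. These pairs of comparisons share no library, but they differ in RNA selection and, for the second, in stage. In both pairs the members' shares are near those of all ZNF members tested in the later-named comparison, whose counts are given above. The shares are therefore not read as a link between the comparisons of a pair.

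Other C2H2 families, from a list of symbols such as klf, sp, zbtb and sall genes that are no ZNF members, were counted in the same fits. In WT 2 hpf against 0 hpf 40 of the 114 tested were higher and 8 lower (median 0.59), against 76 and 9 of the 162 ZNF members. In ybx1 MO against WT at 3 hpf 15 were lower and 3 higher, at 4 hpf 24 lower and 18 higher, and in pabpc1a MO against WT at 4 hpf 31 lower and 17 higher. In amanitin 6 hpf against 4 hpf 53 of the 111 tested were lower and 17 higher (median -0.60). The difference between the families was not tested.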

How the data were processed

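Whole-embryo RNA of 14 groups of 2 libraries was sequenced as paired reads of 125 bp. The deposited files hold raw read counts per Ensembl gene and library, made with TopHat2 2.1.1 and HTSeq 0.6.0 per the submitters' processing notes; which genome build and annotation release they used is not stated in the labels. HTSeq summary lines were present in 14 of the 28 files and were left out of library sizes. These were the files of all ybx1 MO and all rRNA-depleted libraries. No WT or pabpc1a MO poly(A) file had such lines. This difference in file form coincides with every contrast of ybx1 MO with WT or pabpc1a MO. Its part in those contrasts was not tested. In the files with such lines, reads outside genes came to 7.22% to 18.5% and ambiguous reads to 1.33% to 1.80%. The line for reads without a unique alignment was 0 in each of these files, so how such reads were handled is not known. Depth was 39882963 to 100000375 counted reads, and the top gene took 22.2% to 46.1% of poly(A) counts. Spike-ins were not used here. Symbols came from a reference table pairing identifiers with symbols.

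Poly(A) libraries (20) were fitted apart from rRNA-depleted ones (8), with edgeR 4.0.16 (TMM scaling, filterByExpr, robust quasi-likelihood F test, group means only; R 4.3.3), with 10 and 4 residual degrees of freedom, for 17 comparisons. Standard errors are the log2 fold change over the root of F. Calls were at a Benjamini-Hochberg adjusted p under 0.05 over all genes, and the fit was tested on simulated data. Alternatives were DESeq2 1.42.0, median-of-ratios scaling, no filter, the groups compared alone, a replicate block, a threshold of 0.01, and leaving out each library.

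The group titled only MO was taken as ybx1 MO from the series design text. Members, lists and comparisons were chosen with earlier results of these data known. Named genes were, per comparison, up to 6 called members per direction with the largest change, libraries apart and 2 CPM or more, with members of the role lists, the 5 with the highest WT level per class, copies of these, ybx1 and pabpc1a. For genes named by their change, libraries that do not overlap are therefore built in. Statements above that the libraries of such genes lay apart are a description.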

Additional observations from a re-analysis of the deposited data

Results flagged for a closer look

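The tests of a change in knockdown effect between stages are listed here because the effects of 2 stages differed. The ybx1 MO effect differed between 6 and 4 hpf for 77 members and between 4 and 3 hpf for 7, and the pabpc1a MO effect between 6 and 4 hpf for 58. ZNF281 (ENSDARG00000000567) differed by 4.71 on the log2 scale between 6 and 4 hpf and by -2.87 between 4 and 3 hpf in ybx1 MO, and by 3.80 between 6 and 4 hpf in pabpc1a MO. In the ybx1 MO effect between 6 and 4 hpf znf1059 differed by 4.58, ZNF236 by -1.45 and znf989 by -2.04. In the pabpc1a MO effect between 6 and 4 hpf znf1061 differed by 4.76 and ZNF236 by -0.97. Every one of these contrasts takes in the WT 4 hpf pair, whose libraries stood apart. Without single libraries the 77 ranged from 57 to 90, the 58 from 39 to 78 and the 7 from 0 to 37.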

How the results depend on the processing

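Of 1022 values of named genes under the alternatives, 965 stayed on their side of the threshold, 52 lost their call and 5 gained one. No value of a gene called in the fit of all libraries changed direction. Changes of direction among values not called there were not counted. Many of these genes were named for a called, large change with libraries apart. Their agreement is thus partly built in and does not describe the members in general. With only the groups compared in the fit, the members called were 49 in WT 3 against 2 hpf (28 in the fit of all libraries), 0 in WT 4 against 3 hpf (66), 90 in ybx1 MO against WT at 3 hpf (53), 21 in ybx1 MO (77) and 0 in pabpc1a MO against WT at 4 hpf (78), 5 in pabpc1a MO against WT at 6 hpf (18), 2 in the ybx1 MO effect at 4 against 3 hpf (7) and 27 in the pabpc1a MO effect at 6 against 4 hpf (58). At an adjusted p under 0.01 they were 12 in WT 3 against 2 hpf, 32 and 35 in ybx1 MO against WT at 3 and 6 hpf, 7 in pabpc1a MO against WT at 6 hpf, 15 in ybx1 MO against pabpc1a MO at 4 hpf, and 0, 49 and 33 in the ybx1 MO effect at 4 against 3 and 6 against 4 hpf and the pabpc1a MO effect. DESeq2 gave 21 and no filter 4 in the ybx1 MO effect at 4 against 3 hpf. Without single libraries the counts ranged from 64 to 69 in WT 2 against 0 hpf, 5 to 22 in WT 3 against 2, 32 to 87 in WT 4 against 3 and 81 to 111 in WT 6 against 4 hpf. They ranged from 28 to 40, 53 to 89 and 31 to 54 in ybx1 MO against WT at 3, 4 and 6 hpf, 51 to 87 and 8 to 20 in pabpc1a MO against WT at 4 and 6 hpf, and 11 to 23 and 42 to 50 in ybx1 MO against pabpc1a MO at 4 and 6 hpf. For the effects they ranged from 0 to 37 (ybx1 MO, 4 against 3 hpf), 57 to 90 (6 against 4 hpf) and 39 to 78 (pabpc1a MO), and for amanitin from 102 to 109 against WT, 39 to 44 in 4 against 2 and 128 to 131 in 6 against 4 hpf. A fit without 1 library assumes that the lone library left varies like the other groups. The maternal and transcription-dependent class held 4 members at a maternal minimum of 2 CPM, 5 with poly(A) WT 0 hpf as the maternal measure and 4 at a 4-fold limit, and the class neither held 9 at 0.5 CPM. The cause of these shifts was not tested.

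Same-numbered libraries did not deviate together: over 45 pairs of poly(A) groups the correlation had a median of 0.0066 and exceeded 0.1 in 2. znf451 in WT 3 against 2 hpf had an adjusted p of 0.0536 in edgeR's fit with a replicate block. With the block the calls were 84, 27, 68 and 99 in the WT steps, 52, 77 and 63 in ybx1 MO against WT, 77 and 18 in pabpc1a MO against WT, 131 in amanitin 6 against 4 hpf, and within 1.5 times of the fit without it in the other comparisons.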
